A study of Mus musculus with 2 samples.

Results

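The kallikreins and their inhibitor that control skin shedding were followed in mouse epidermis in which the transcription factor SOX11 had been switched on for 12 h. The group held 10 genes, the kallikreins Klk5, Klk6, Klk7, Klk8, Klk10, Klk11, Klk12, Klk13 and Klk14 and the inhibitor gene Spink5, and its members were all array probes that carried these names. There were 11 such probes among 55676 tested, 1 for each gene except Klk12, which had 2. Both groups of pups were FVB/N mice with the age P4.5 in the labels, and both received doxycycline (Dox) for 12 h. Control pups were K14-rtTA, a transgene in which the keratin 14 promoter makes a doxycycline-dependent activator. SOX11-induced pups were K14-rtTA;TRE-Sox11-FLAG, with a second transgene that this activator turns on to give FLAG-tagged SOX11. The activator is thus made in keratin 14 positive cells, those of the basal layer and of the outer hair follicle. Epidermis was freed from dorsal skin with dispase, per the methods, and its total RNA was put on 2-colour arrays, each with 1 littermate pair. The control was labelled with Cy3 and the SOX11-induced pup with Cy5 on both arrays, per the labels, so dye and genotype cannot be told apart within a probe. With 2 pairs, error is given as SD, n = 2, and the number of arrays limits the precision.

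Kallikreins are secreted serine proteases made in the uppermost living layers of the epidermis. They are released as inactive precursors, activate one another in the spaces between cells, and cut the corneodesmosomes, the rivets that hold dead surface cells together, so that the outermost cells can be shed. KLK5 and KLK7 are the best known of them, and LEKTI, the product of Spink5, is their inhibitor. Loss of LEKTI in Netherton syndrome leads to unchecked protease activity and a defective skin barrier. KLK5 can also cut the receptor PAR2 on keratinocytes, which sets off an inflammatory signal.

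None of the 10 genes passed the test of SOX11-induced against control epidermis. Of the 11 probes, 0 had an adjusted p under 0.05 (limma, Benjamini-Hochberg over all probes), while 4.39% of all probes did, and 2.99% did so as higher in SOX11-induced epidermis. Past a log2 ratio of 1.5 with that adjusted p the members again counted 0, against 0.453% of all probes. At an unadjusted p under 0.05 there were still 0 of 11, against 21.1% of all probes. The lowest unadjusted p of a member was 0.0586 and the lowest adjusted p was 0.256 (limma), both at 1 of the 2 Klk12 probes. Neither control pup was well above background at that probe, and the other Klk12 probe had an adjusted p of 0.895 (limma). The mean log2 ratios ran from -0.09 for Klk14 to 0.49 for Klk10, with a median of 0.055, beside 0.0064 for all probes and 0.039 for the 21782 probes with a channel above background on each array (the probes above background). Of the 11 probes, 3 were higher in both pairs, 2 were lower in both and 6 had opposite signs in the pairs. These shares were 33.4%, 31.8% and 34.8% over all probes, and 41.0%, 33.1% and 26% over the probes above background. Of those 21782 probes, 2176 had an adjusted p under 0.05. The counts of members are descriptions of a chosen list. The count of 0 depended on how the arrays were centred. With median centring in place of loess, 8 of the 11 had an adjusted p under 0.05, all of them higher and 0 past log2 1.5, as the median of the probes above background itself moved to 0.506 and 33.2% of all probes passed.

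A p that misses the threshold does not show that values are equal, so the 95% intervals of the limma fit were read as well. All 11 intervals held 0, and 0 reached log2 1.5 in either direction. For 7 probes the whole interval lay within a change of 1.5-fold. Of these 7, the probes of Klk5, Klk7, Klk8, Klk11 and Klk13 and 1 of the 2 for Klk12, 6 in all, were well above background in each of the 4 pups. The intervals of the other 4 probes, for Klk6, Klk10, Spink5 and the other Klk12 probe, reached past 1.5-fold on the higher side. With 2 arrays the widths rest largely on a variance shared over all probes, and the counts hold for loess alone. With median centring the means of Klk5, Klk7, Klk8 and Klk11 were 0.78, 0.76, 0.80 and 0.74, past 1.5-fold (log2 0.585).

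**Figure D1:**
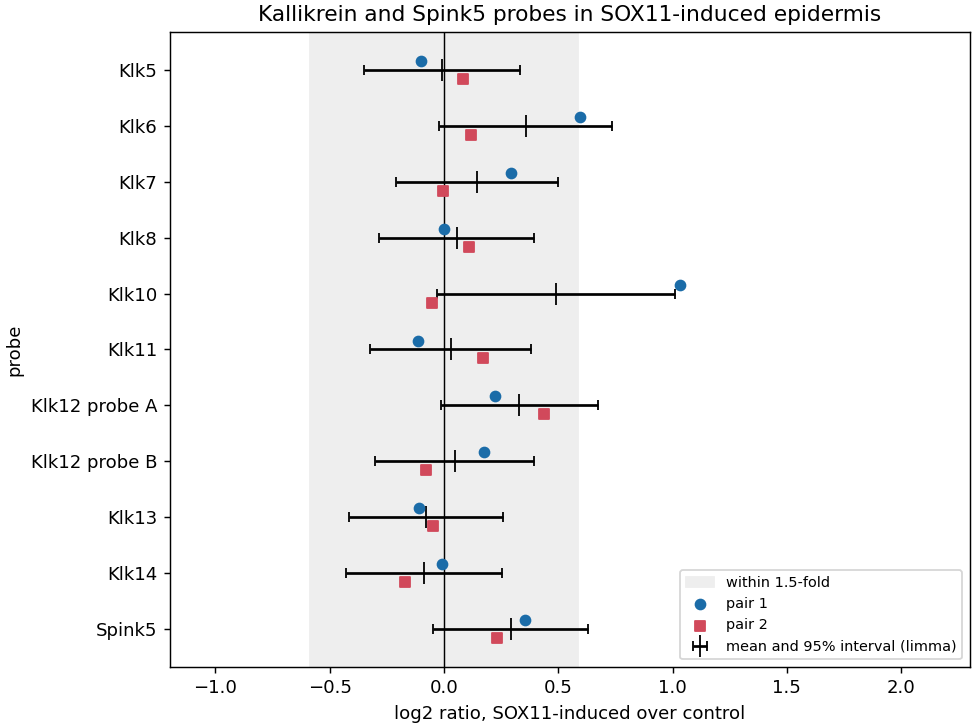
Log2 ratios of SOX11-induced over control epidermis (x axis) for the 11 probes (y axis), with pair 1 as circles, pair 2 as squares, and the mean with its 95% interval from limma as bars. The grey band marks changes within 1.5-fold, all 11 intervals hold 0, and the pairs lie farthest apart at Klk10, with 1.03 and -0.05.

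Of the 11 probes, 9 were well above background in every pup, and these covered 9 of the 10 genes. The exception was Klk14, whose probe was not well above background in any channel. A level below is the normalized log2 brightness of one probe in one pup, and it is comparable between pups but not between probes. Of the 2 Sox11 probes, both lay below background in every channel, so the induced gene itself could not check the labels. The paper saw the FLAG-tagged protein by immunofluorescence in pups of this genotype after Dox. The keratins of both layers, Krt5 and Krt14 of basal and Krt1 and Krt10 of differentiating cells, were above background in every channel, as was loricrin (Lor), which builds the shell of the cornified cells. Whether a ratio comes from fewer cells of a type or from less RNA per cell cannot be told apart in such bulk samples.

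The probes for 3 kallikreins are printed to show what was hybridised. Klk10 is shown since its pairs differed most, Klk8 since its interval was among the narrowest, and Klk14 since it gave no signal above background. They read, from 5′ to 3′ on the forward strand of mm9 chromosome 7, with the stop codon in capitals:
Klk10: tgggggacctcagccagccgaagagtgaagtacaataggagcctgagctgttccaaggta
Klk8: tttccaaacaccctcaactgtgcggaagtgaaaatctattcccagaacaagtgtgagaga
Klk14: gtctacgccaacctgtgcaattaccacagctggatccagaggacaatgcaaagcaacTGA
The Klk10 probe has 60 bases but is listed from 51039077 to 51039720, a span of 644 bases, so its bases come from both sides of an intron. The other 9 kallikrein probes had a span of 60 bases each. The Klk8 probe lies at 51057455-51057514, and the Klk14 probe at 50950330-50950389 ends in TGA. Of the 10 kallikrein probes, 4 held the letters AATAAA, the core of the polyadenylation signal near the end of a messenger RNA. These were the probes of Klk5, Klk7 and Klk13 and 1 Klk12 probe, beside 10.1% of all tested probes, searched on the printed strand.

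KLK5 and KLK7 start and carry out the cutting of corneodesmosomes. Klk5, a trypsin-like protease that activates other kallikreins, has its probe at 51106492-51106551 on chromosome 7. Its log2 level was 15.2 in the control and 15.1 in the SOX11-induced pup of pair 1, and 14.8 and 14.9 in pair 2. The pairs moved in opposite directions and by little, -0.10 and 0.08, and the groups overlapped. The mean log2 ratio was -0.0085 ± 0.132 (SD, n = 2, 95% interval -0.35 to 0.33, adjusted p = 0.982, limma), which is 0.784-fold to 1.26-fold at the ends of the interval. Klk7, the chymotrypsin-like protease that cuts corneodesmosin, has its probe at 51071388-51071447. Its log2 level was 10.3 in the SOX11-induced pup of pair 1, 0.29 above its littermate, and was 10.4 in both pups of pair 2. The control of pair 1 was the lowest of the 4 pups, and the other 3 lay close together. The mean log2 ratio was 0.14 ± 0.212 (SD, n = 2, adjusted p = 0.646, limma).

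Klk14 and Klk8 are the other proteases with a described part in shedding. KLK14 accounts for much of the trypsin-like activity of human cornified layer. The Klk14 log2 level was between 5.02 and 5.20 in the 4 pups, not well above background in any of them, so no fold is given. Klk8 encodes neuropsin, a trypsin-like protease of the epidermis and the nervous system. Its log2 levels were 14.0 in both pups of pair 1, and 13.7 and 13.9 in pair 2. Pair 1 lay above pair 2 whatever the genotype, by 0.28 between the controls. The mean log2 ratio of Klk8 was 0.055 ± 0.0779 (SD, n = 2, 95% interval -0.28 to 0.39, adjusted p = 0.872, limma).

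Klk6, Klk11 and Klk13 encode further kallikreins of the upper epidermis. Klk6, a trypsin-like protease also known from brain, has its probe at 51086977-51087036. Its log2 levels were 11.5 and 12.1 in pair 1 and 11.8 and 11.9 in pair 2. Both SOX11-induced pups lay above both controls, which held for 3 of the 11 members and for 24.5% of all probes, and the log2 ratios were 0.60 and 0.12. The mean log2 ratio was 0.36 ± 0.338 (SD, n = 2, 95% interval -0.02 to 0.74, adjusted p = 0.263, limma), so the pairs differed by more than the mean itself. Klk11 has its probe at 51034552-51034611, with log2 ratios of -0.11 and 0.17, averaging 0.029 ± 0.201 (SD, n = 2), and an adjusted p of 0.939 (limma). Klk13 has its probe at 50982064-50982123. Its log2 level was 10.1 in the control of pair 1, 0.11 above its SOX11-induced littermate, and 10.6 and 10.5 in pair 2, so that here, too, pairs lay farther apart than genotypes. Its mean log2 ratio was -0.08 ± 0.0435 (SD, n = 2, adjusted p = 0.805, limma).

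Klk12 was measured by 2 probes that lie close to each other. Probe A, at 51028738-51028797, was near background in both control pups and well above it in 1 of the SOX11-induced pups. Pair 1 gave 0.22 and pair 2 gave 0.44 on the log2 scale (mean 0.33 ± 0.15), with an adjusted p of 0.256 (limma), and no fold is given. Probe B, at 51028889-51028948, was above background in every channel. Its log2 ratios of 0.17 and -0.08 averaged 0.048 ± 0.177, with an adjusted p of 0.895 (limma). The probe that was measured throughout thus gave opposite signs in the pairs.

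Klk10 differed most between the pairs. KLK10 is a secreted member of the family whose part in shedding is less clear. The Klk10 log2 level was 8.69 in the control and 9.72 in the SOX11-induced pup of pair 1, and 10.5 and 10.4 in pair 2. The control of pair 1 was the lowest, its SOX11-induced littermate was 0.71 below that of pair 2, and the groups overlapped. The log2 ratios were 1.03 and -0.05, averaging 0.49 ± 0.766 (SD, n = 2) with a 95% interval of -0.03 to 1.01 and an adjusted p of 0.265 (limma). The difference between the ratios of the pairs was 1.08 on the log2 scale, and 2.03% of the probes above background had one as large. Between the controls alone the Klk10 level was 1.79 higher in pair 2, a size reached in either direction by 1.26% of those probes. Both shares are for the member picked because it differed most, not for a probe fixed beforehand. Controls of the other members differed by -0.50 to 0.47.

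**Figure D2:**
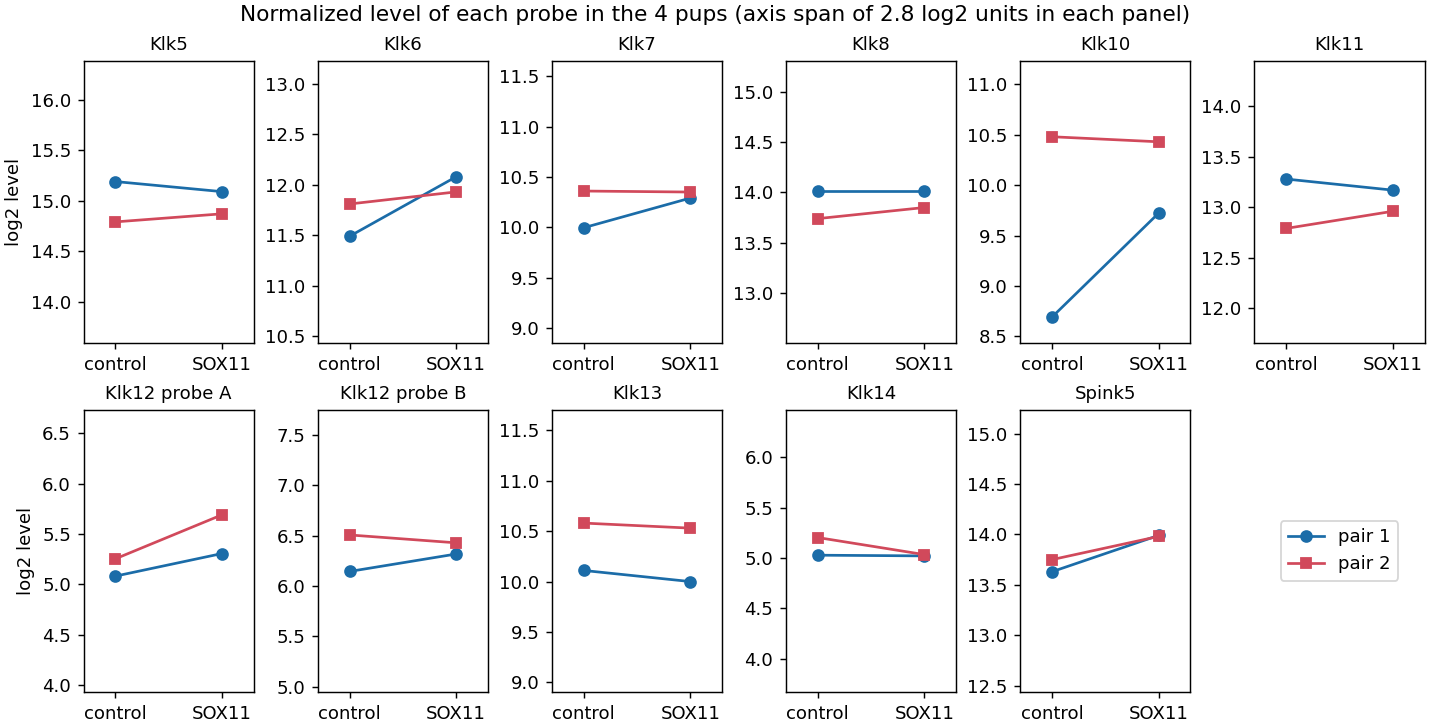
Normalized log2 level (y axis) of each of the 11 probes in the control and the SOX11-induced pup (x axis), with a line for each pair. Panels share an axis span but not a position, and at Klk10 the control of pair 1, at 8.69, lies below the other 3 pups.

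Markers of hair moved in the same pair. All 18 measured genes of the hair shaft list, keratins and keratin-associated proteins of the hair fibre, were above background in the control channel on both arrays. Their median log2 ratio was 2.28 in pair 1 and -0.42 in pair 2. Their summed log2 level was 15.76 in the control of pair 1, 18.01 in its SOX11-induced littermate, and 18.99 and 18.62 in pair 2, so that the same control pup was lowest here. For the 9 genes of the inner root sheath the medians were 1.62 and -0.36, and the summed levels 16.39 and 18.03 in pair 1 and 18.61 and 18.24 in pair 2. Of the hair shaft genes 0 passed the test, and of the inner root sheath genes 1 did, Gata3, which fell by 0.76. Their part in the Klk10, Klk7 and Klk6 ratios of pair 1 was not tested.

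**Figure D3:**
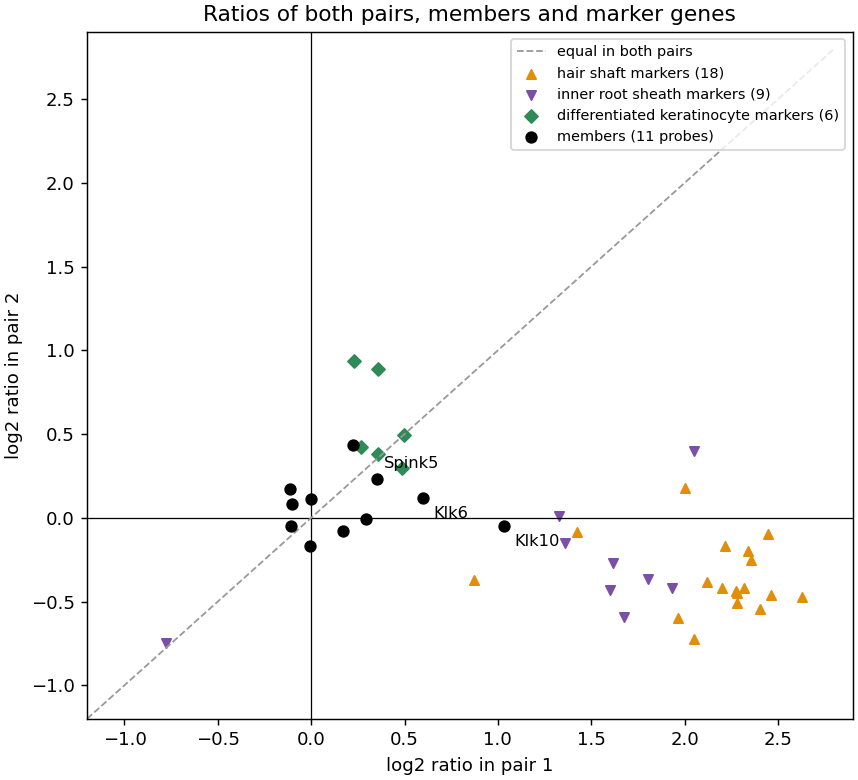
Log2 ratio in pair 1 (x axis) against that in pair 2 (y axis) for the 11 probes and for marker genes of the hair shaft, the inner root sheath and differentiated keratinocytes, with the dashed line where pairs are equal. Klk10 lies to the right at 1.03 and -0.05, toward the hair shaft genes with their medians of 2.28 and -0.42, while Spink5 lies near the dashed line at 0.35 and 0.23.

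Spink5 encodes LEKTI, a chain of inhibitor domains that binds kallikreins between the cells of the granular layer. Its probe lies on chromosome 18 at 44181579-44181638. Its log2 level was 13.6 in the control and 14.0 in the SOX11-induced pup of pair 1, and 13.7 and 14.0 in pair 2. Both SOX11-induced pups lay above both controls, as they did at 24.5% of all probes. Among the members this also held at Klk6 and at Klk12 probe A, whose controls were near background. The log2 ratios of 0.35 and 0.23 gave a mean of 0.29 ± 0.0869 (SD, n = 2, 95% interval -0.05 to 0.63), or 1.22-fold, with an adjusted p of 0.304 (limma). The 6 markers of differentiated keratinocytes were higher in both pairs, as were 41.0% of the probes above background. The medians of the 6 markers were 0.36 in pair 1 and 0.46 in pair 2. All 6 had an unadjusted p under 0.05, as did 6788 of the 21782 probes above background, and 0 had an adjusted one. By the brightest probe of each gene, 5 of the 6 basal keratinocyte markers were lower in both pairs, as were 33.1% of the probes above background. The medians of these 6 were -0.21 and -0.43, and Krt15 passed the test with a mean of -1.03 (adjusted p = 0.00573, limma). A dimmer Itga6 probe, above background in every channel, rose by 3.766 and 2.996 (adjusted p = 6.21e-05, limma). The dimmer Trp63 probes were mixed, with 0.557 and 0.4976, -0.2377 and -0.1973, and -0.02517 and 0.1833. The dimmer Krt5 probe was lower in both pairs. The part of either list in the Spink5 ratio was not tested.

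The kallikrein genes form a cluster, and their probes were read in order along it. Between the probes of Klk14 and Klk5, from 50950330 to 51106551 on chromosome 7 (156 kb), there were 12 probes, 10 of them members. Of the 12, 0 had an adjusted p under 0.05, and their median log2 ratio was 0.099. The other 2 were Klk9, a neighbouring kallikrein, with log2 ratios of 0.23 and 0.11, and 2310002F09Rik, a gene between Klk13 and Klk12. The probe of 2310002F09Rik at 51000836-51000895 had 0.59 and 0.55 (mean 0.57 ± 0.0301, adjusted p = 0.0653, limma) and was named after its values were seen. Its interval, 0.24 to 0.91, was the only one of the 12 that did not hold 0. Klk14 and Klk13 at one end were lower in both pairs, the first of them below background, and the signs of the members between Klk13 and Klk5 varied.

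**Figure D4:**
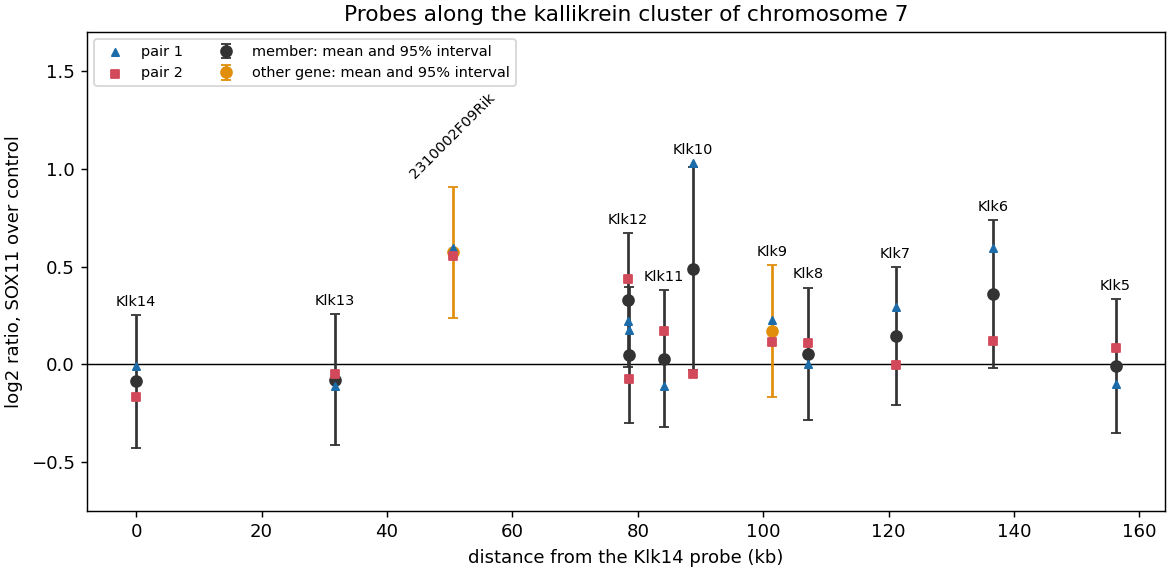
Log2 ratios (y axis) of the 12 probes by distance from the Klk14 probe in kb (x axis), with pair 1 as triangles, pair 2 as squares, and means with 95% intervals from limma for members (dark) and other genes (orange). The interval of 2310002F09Rik, 0.24 to 0.91, is the only one that lies above 0.

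Upstream sequence of the kallikreins was searched for the letters AACAAAG and AACAATG, forms of the core that SOX proteins bind, on both strands. RefSeq promoters of GRCm38.p6 were given for all 9 kallikrein genes, 11 start sites in all, and the 250 bases before each start were read. A match was found at 1 of the 11 (9.09%), beside 8.12% of 32851 promoters of all genes. It lay before the downstream of 2 Klk11 starts, at chr7:43776214-43776243 on the forward strand, shown with the match in capitals since it was the only one:
Klk11: ggagccttgcccAACAAAGcccctcccagc
A match is a description of letters and not a binding site. Klk11 itself had log2 ratios of -0.11 and 0.17.

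The genes around the kallikreins were then counted from 6 lists, with the brightest probe of each gene. Of 53 measured genes, 3 had an adjusted p under 0.05 (5.66%), beside 4.39% of all probes and 2176 of the 21782 probes above background. For 16 of the 53 no channel was above background. The 3 genes were higher in SOX11-induced epidermis, as 2.99% of all probes were with that adjusted p. They were F2r, F2rl1 and Spink7.

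The corneodesmosome substrates, which the kallikreins cut, counted 0 of 5 past the test in either direction, with a median log2 ratio of -0.20. With an offset of 50 there were 2, Cdsn with 0.41 and Dsg1c with -0.48, and 7.91% of all probes passed there. Cdsn (corneodesmosin), the glycoprotein cut by KLK5 and KLK7, gave 0.56 in pair 1 and 0.31 in pair 2 on the log2 scale, with an adjusted p of 0.151 (limma). The desmosomal cadherins had values of the other sign, except under median centring, where the means of Dsg1a, Dsg1b and Dsc1 turned to 0.29, 0.37 and 0.43, that of Dsg1c was near 0, and Cdsn passed the test with 1.27. Dsg1a, Dsg1b and Dsg1c, which encode desmoglein 1 proteins, had means of -0.36 ± 0.293, -0.20 ± 0.254 and -0.55 ± 0.297 (adjusted p = 0.250, 0.509 and 0.0964, limma). Dsc1 (desmocollin 1) had -0.20 ± 0.0133 (adjusted p = 0.490, limma). The Dsg1 genes are close copies of each other, so their probes may share signal.

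Of 9 membrane proteases upstream of the kallikreins and their inhibitors, among them matriptase and prostasin, 0 passed the test, with a median of 0.23, and 8 of the 9 were higher in both pairs. Of the probes above background, 41.0% were higher in both pairs. With median centring these 9 had a median of 0.86 and 8 passed, and with an offset of 50 1 passed. In these settings 33.2% and 7.91% of all probes passed. Of 8 other proteases of the cornified layer 0 passed, with a median of 0.14. Their median was 0.26 with processed signals and 0.75 with median centring, where 5 passed, and with an offset of 50 2 passed. Of 17 other kallikreins, most of them of the Klk1 subfamily of glands, 0 passed, with a median of -0.046 that was 0.12 with processed signals and 0.17 over the 3 genes above background, and -0.11 with the series table and -0.19 with median centring. With median centring 3 of the 17 passed, Klk9 as higher and Klk1b16 and Klk1b27, which were below background, as lower. For 11 of these 17 no channel was above background, and the copies of that subfamily are too alike for a probe to be assigned with certainty.

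Of 8 measured inhibitors other than LEKTI, 1 passed. Spink7, an inhibitor of the same Kazal family as LEKTI, rose by 0.86 in pair 1 and 0.55 in pair 2 on the log2 scale, averaging 0.71 ± 0.215, with an adjusted p of 0.0383 (limma). Levels of Spink7 were 5.36 and 6.22 in pair 1 and 6.63 and 7.18 in pair 2, and the control of pair 1 was not well above background, so the ratio of that pair is one against a level near background. With median spot brightness its adjusted p was 0.0676 (limma). The list had a median of 0.26, which was 0.43 with processed signals and 0.67 with median centring, where 5 of the 8 passed. With an offset of 50 2 passed, beside 7.91% of all probes.

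Among the 6 receptor and alarm genes, 2 passed the test. F2rl1 encodes PAR2, the receptor that KLK5 can cut. Its log2 ratios were 0.68 and 0.66, with an adjusted p of 0.0394 (limma), and neither control pup was well above background. With each control raised to the lowest signal above background where it lay below that, F2rl1 was 1.41-fold higher in SOX11-induced epidermis. With median spot brightness its adjusted p was 0.0745 (limma). F2r encodes PAR1, the thrombin receptor. The F2r log2 level was 8.84 in the control and 11.2 in the SOX11-induced pup of pair 1, and 8.77 and 11.3 in pair 2. The groups were far apart, and the mean log2 ratio was 2.46 ± 0.131 (SD, n = 2, adjusted p = 7.44e-05, limma). F2r was the 1 gene of the 53 past log2 1.5. Tslp and Il1a, which encode cytokines released by keratinocytes, had means of 0.42 and 0.44 and did not pass (adjusted p = 0.154 and 0.148, limma), and no channel of Tslp was above background.

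**Figure D5:**
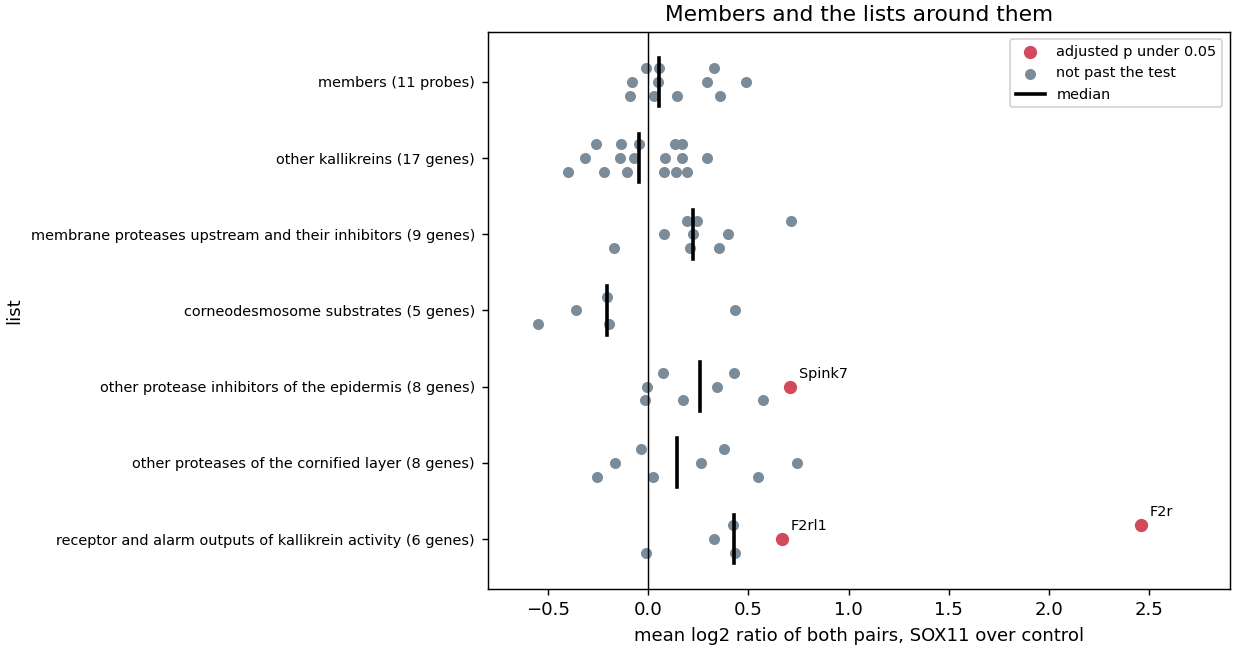
Mean log2 ratio of both pairs (x axis) for the 11 member probes and for each measured gene of the 6 lists (rows), with black bars at the medians and red points at an adjusted p under 0.05. F2r lies at 2.46, apart from F2rl1 and Spink7, and no member is red.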

How the data were processed

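Each of 2 two-colour Agilent arrays compared 1 SOX11-induced pup with 1 littermate control. The authors deposited, per the file headers, spot and background intensity from Agilent Feature Extraction 10.7.3.1 without normalization, and processed signals in which that software had corrected background and dyes. The series table holds log2 ratios that the authors made with limma, normexp and loess, per the methods. The deposited columns correlated at 1.00 with a rebuild from median spot brightness, which settled their scale and direction, and had medians of 0.0098 and 0.0047.

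Mean spot and median background intensity were corrected in limma 3.58.1 (R 4.3.3) with normexp and an offset of 16, and each array was centred by loess. Control and outlier-flagged spots (194 and 186) were left out, and spots of a probe averaged. An intercept was fitted to both ratios of each of 55676 probes with moderated variances (prior of 8.34 degrees of freedom) and Benjamini-Hochberg adjustment. Littermates share an array, so the fit is paired. With 2 arrays the smallest p of an exact sign-flip test is 0.5, so p-values rest on that prior. Probes counted as above background where at least 0.5 of their spots were marked so. Levels used loess and Aquantile scaling. The fold of F2rl1 took the control as the higher of its own and the lowest signal above background. It is not a strict lower bound and is open to dye bias. Between 37.5% and 42.6% of spots were above background per channel, and 0 were saturated. The fit was also run on simulated ratios drawn from its own prior, with independent probes and no dye bias. Such a run checks the code and cannot speak to the 2 real arrays.

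The members and lists were chosen with earlier results of these data known. All members were named, and of the lists each gene past the test and all corneodesmosome substrates. Others were chosen after their values were seen: Tslp and Il1a, Klk9, 2310002F09Rik, Krt15, Itga6, Trp63, Gata3, Klk1b16, Klk1b27 and the genes beside F2r. Alternatives were another offset, median spots, median centring, processed signals, the series table, dim probes left out, each pair alone, a 1.5-fold threshold and all probes of a gene. The methods mention a colour swap, which the labels do not show. Coordinates are mm9 from the array files, promoters from RefSeq (GRCm38.p6).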

Additional observations from a re-analysis of the deposited data

How the results depend on the processing

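The members counted 0 probes with an adjusted p under 0.05 under every alternative run except median centring in place of loess. That setting gave 8 of 11 (Klk5, Klk6, Klk7, Klk8, Klk10, Klk11, Klk13 and Spink5, all higher), where 33.2% of all probes passed and the median of probes above background moved from 0.039 to 0.506. The member median there was 0.762, or 0.256 above that shift, and Klk5 and Klk13 changed sign to 0.78 and 0.54. With processed signals the member median was 0.121, Klk5 had 0.029, and 0 of all probes passed, against 17.5% at an unadjusted p under 0.05. Counts past log2 1.5 were 0 in all settings. Past a linear 1.5-fold they were 0 with loess and 7 with median centring (all of those 8 but Klk13), a combination tried after seeing the data. The member median was between 0.0849 and 0.173 with either pair left out.

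The share of all probes that passed was 4.39% in the main setting, 7.91% with an offset of 50 and 33.2% with median centring. Of the 53 list genes, 3 passed in the main setting, 9 with an offset of 50, 25 with median centring, 0 with processed signals, and 1 (F2r) with either median spot brightness or the series table. F2rl1 and Spink7 thus lost their calls in the last 3 of these settings. The causes were not tested. No separate replicate block was needed, since each ratio is within a littermate pair. The call of F2r held in all settings but processed signals. Precision is limited by 2 arrays of 1 dye orientation, and Klk14 and Klk12 probe A by brightness near background.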

Other observations

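The genes beside F2r were listed after its value was seen. F2rl1 and F2r lie at 96282038-96282097 and 96371902-96371961 on chromosome 13, with F2rl2, another receptor of the family, at 96471885-96471944. F2rl2 had log2 ratios of 0.11 and -0.39 and was below background in every channel. So was Iqgap2, whose probe lies between those of F2r and F2rl2, with 0.07 and -0.17. Aggf1, at 96120693-96120752, was above background in every channel with log2 ratios of -0.05 and 0.08 (adjusted p = 0.963, limma). S100z, Crhbp and Zbed3, between Aggf1 and F2rl1 or beside Aggf1, were below background in every channel.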
